A study of Homo sapiens and Mus musculus with 16 samples.

Results

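The 7 mRNAs described here encode the RNA-binding repressors PUM2, CPEB1, CPEB2, CPEB3, CPEB4, MSI1 and MSI2. They were taken by symbol from the human table of 22286 genes and, ignoring case, from the mouse table of 15881 genes, and all 7 were present in both. P-body-seq sorts fluorescent P-bodies, cytoplasmic condensates of repressed mRNA and protein, out of lysed cells. Their RNA is sequenced next to that of the cytoplasmic fraction before sorting, called cytoplasm here. Per the study's methods, this fraction is a resuspended pellet of the lysate without nuclei, from which the P-bodies are then sorted. It therefore still holds P-bodies, and a ratio is not the share of an mRNA held in them. The 16 libraries comprised 2 P-body and 2 cytoplasm libraries from each of 4 cell types. HEK293T-LSM14a-GFP is a human embryonic kidney line. The liver bud progenitors and the day 20 neurons were both differentiated from UCLA4-LSM14a-GFP, a human embryonic stem cell line. The mouse embryonic stem cells (mESC) were the line KH2-LSM14a-GFP, grown in serum-LIF. All 4 cell types therefore expressed GFP fused to the P-body protein LSM14A, from a lentiviral vector in HEK293T and mESC and from the AAVS1 locus in UCLA4 cells per the study's methods, and none was a knockout. HEK293T and mESC libraries were labelled total RNA, and liver bud progenitor and neuron libraries polyA RNA, so that RNA selection and cell type cannot be told apart in any comparison across that line.

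Pumilio, CPEB and Musashi proteins bind short motifs in the 3′ untranslated regions (3′UTRs) of mRNAs. Pumilio proteins recruit deadenylase to shorten poly(A) tails, CPEB proteins hold mRNAs dormant or activate them by cytoplasmic polyadenylation, and Musashi proteins repress or activate translation in stem and progenitor cells, MSI1 being a marker of neural progenitors. Such repressors act in oocytes, stem cells and neurons, where many of their target mRNAs are stored. Whether the mRNAs that encode them are themselves held in P-bodies, and in which cell types, was the question for these values.

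The mRNAs of PUM2, CPEB2 and CPEB4 were higher in P-bodies than in cytoplasm in all 4 cell types, whereas MSI1 mRNA was lower in P-bodies in all 4. CPEB4 was the most P-body-enriched member in HEK293T and neurons, with log2 changes of 1.31 ± 0.060 and 1.84 ± 0.093 (SE, n = 2 libraries per fraction). In mESC it was Cpeb2, at 1.54 ± 0.19. In liver bud progenitors CPEB2 (0.98 ± 0.11) and CPEB4 (0.89 ± 0.078) were close, and their ranges with 1 library left out overlapped. MSI2, the paralogue of MSI1, went the opposite way to MSI1 in HEK293T, liver bud progenitors and mESC, and had a log2 change of 0.04 ± 0.16 in neurons that did not pass the test. With trends in GC content and transcript length removed, MSI2 stayed higher in P-bodies only in liver bud progenitors. CPEB1 mRNA was low, with 0 to 52 counts a library, and passed no test. A change passed where edgeR's quasi-likelihood test, adjusted over all genes by Benjamini-Hochberg, gave an adjusted p under 0.05. By that rule 5 of the 7 members were higher and 1 was lower in HEK293T P-bodies, where 19.3% of all genes tested were called higher and 22.8% lower. Neurons had 4 members higher and 1 lower (14.6% and 14.1% of all genes), as had liver bud progenitors (21.4% and 17.1%), and mESC had 5 and 1 (25.8% and 20.6%). The member called lower was MSI1 each time. For genes averaging at least 1 normalised CPM, a group that held all members except CPEB1 in neurons, the share called higher was 32% in HEK293T, 19.9% in neurons, 32.3% in liver bud progenitors and 33.8% in mESC, and the share called lower 38%, 21.1%, 24.6% and 20.2%. The median log2 change of the 7 members was 0.61 in HEK293T, 0.58 in neurons, 0.62 in liver bud progenitors and 0.57 in mESC, beside −0.01, 0.19, −0.09 and −0.11 over all genes. Both P-body libraries were above both cytoplasm libraries for 5, 4, 4 and 6 members in that order, and for 31.1%, 34.9%, 31.2% and 33.6% of all genes. They were below for 1, 2, 1 and 1 members, and for 33.7%, 30.1%, 32.9% and 39.4% of all genes.

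**Figure D1:**
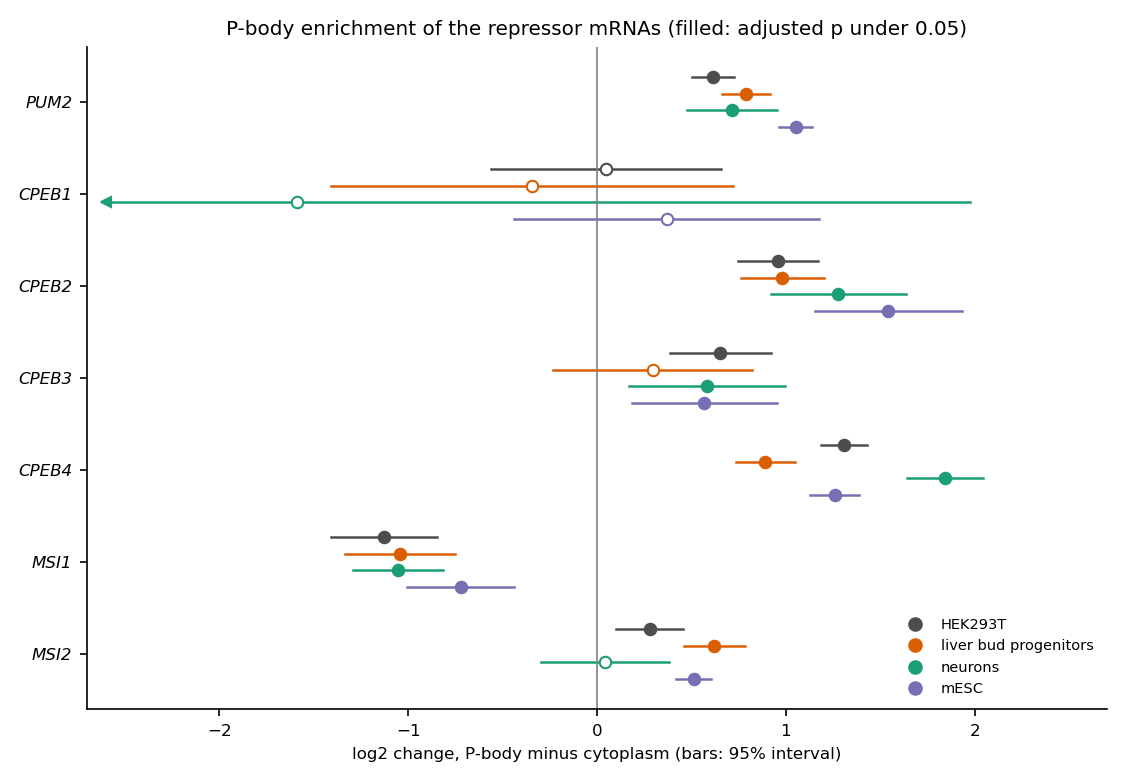
The log2 change from cytoplasm to P-body (x axis) of each member (rows) in the 4 cell types (colours), with 95% intervals as bars; filled points passed at adjusted p under 0.05 and an arrow marks an interval that runs off the axis. PUM2, CPEB2 and CPEB4 lie right of zero and MSI1 left of zero in every cell type, with MSI1 between −1.13 and −0.72.

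Library totals ran from 6368953 to 17972284 counts, and 3 counts, taken as a library's detection floor, were worth 0.167 to 0.471 CPM (counts divided by the library total and put on a common scale). Marker genes followed the labels for the neurons, whose 7 neuronal markers summed to between 8527 and 10300 CPM against at most 226 CPM in any other human library. The liver bud progenitors held 182 to 404 CPM of 7 hepatic endoderm markers, all of them detected, but also 1453 to 2533 CPM of 7 pluripotency markers, of which ESRRB was under 1 CPM. The neuron P-body pair was the least alike of the replicate pairs, with a Spearman correlation across genes of 0.915 against at least 0.962 for the other 7 pairs. With each neuron library left out in turn, the neuronal P-body change ranged from 0.62 to 0.81 for PUM2, 1.15 to 1.39 for CPEB2, 1.81 to 1.88 for CPEB4 and −1.21 to −0.91 for MSI1, all called. The study describes its sequencing replicates as biological, the labels do not say which cultures they came from, and p-values here measure only the spread between these libraries. In bulk libraries, fewer cells of a type and less RNA per cell cannot be told apart.

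To show what these mRNAs carry themselves, their longest annotated 3′UTRs were searched on the transcript strand for the Pumilio motif TGTANATA, for the CPEB motifs TTTTAT and TTTTAAT, and for the Musashi motifs GTAGT and ATAGT. Across all human genes with a 3′UTR, 28.41% held the Pumilio motif, 65.79% a CPEB motif and 66.15% a Musashi motif. Among human members, the Pumilio motif was found in PUM2 (2 sites), CPEB3 (2), MSI1 (1) and MSI2 (3), and not in CPEB2 or CPEB4. In GENCODE v44 on hg38, PUM2 lies at chr2:20248691-20352234, CPEB1 at chr15:82543201-82648861, CPEB3 at chr10:92046692-92291078 and MSI1 at chr12:120341330-120369164, all on the minus strand. CPEB2 lies at chr4:15002481-15070153, CPEB4 at chr5:173888349-173961980 and MSI2 at chr17:57255851-57684689, on the plus strand. These 8 Pumilio sites, all within 3′UTRs, are printed 5′ to 3′ on the transcript strand, with the motif in capitals and the hg38 position of the printed 30 bases, because they are places where the Pumilio motif occurs in mRNAs of this same set of repressors.
PUM2 site 1, minus strand, chr2:20251142-20251171: gtttatagagaTGTATATAgaattatagtc
PUM2 site 2, minus strand, chr2:20250882-20250911: tacagaaatatTGTATATActtacatatgt
CPEB3 site 1, minus strand, chr10:92049458-92049487: cccttttgtttTGTAAATAaatgtgccccc
CPEB3 site 2, minus strand, chr10:92047720-92047749: gtattcagtttTGTAAATAatatatagatt
MSI1, minus strand, chr12:120342425-120342454: cctgtatcataTGTAAATActgtgaggtga
MSI2 site 1, plus strand, chr17:57679731-57679760: gcttttaaatgTGTATATAacccatgattt
MSI2 site 2, plus strand, chr17:57680337-57680366: aaaagaaatgtTGTAAATAcaattccatta
MSI2 site 3, plus strand, chr17:57684167-57684196: ctactgtattcTGTACATAatgtaccatcc
The MSI1 site and the first CPEB3 site were identical over all 30 bases in the mouse 3′UTRs (mm10), and the first PUM2 site differed at 1 base. The Pumilio motif therefore occurred in the P-body-depleted MSI1 as in P-body-enriched members. Unlike human CPEB2, mouse Cpeb2 held 1 match, while mouse Cpeb4 held 0. A match is a run of letters and does not show that a protein binds there.

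The members divided differently by the Musashi motif. MSI1 held 0 matches in a 3′UTR of 1797 bases and its mouse counterpart 0 in 1895 bases, while the other 6 human members held between 5 and 17 and the other 6 mouse members between 4 and 12. CPEB motifs were found in all 7, from 2 in CPEB1 to 25 each in CPEB2 and CPEB4. Of the 25 matches in CPEB4, 8 were identical in mouse over the 30-base window, and of the 25 in CPEB2, 13 were. A pair of the shared CPEB4 matches, a CPEB2 match and the Musashi match in MSI2 that is identical in mouse are shown as examples of a family's motif lying in a member's own 3′UTR, unchanged between the species.
CPEB4, plus strand, chr5:173958382-173958411: agctttttgtacTTTTATtactgagagatc
CPEB4, plus strand, chr5:173958462-173958491: ttatattctgctTTTTATacatttcagtgc
CPEB2, plus strand, chr4:15069197-15069226: aaacacttgataTTTTATccctgttgcatc
MSI2, plus strand, chr17:57684395-57684424: atgagaactttgGTAGTgagtatttttttt
By base composition, MSI1 also stood apart, with 59.1% GC over its transcript against 38.4% to 44.9% for the other human members, and 57.9% against 39.3% to 48.2% in mouse. MSI1 was more GC-rich than 84.5% of human genes and Msi1 than 90.6% of mouse genes.

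PUM2 encodes a Pumilio protein that brings deadenylase to its targets, and its mRNA was among the more abundant of the set. Levels are given as normalised CPM, on library sizes scaled by TMM among the 4 libraries of a cell type. HEK293T held 488 and 463 normalised CPM of PUM2 in the P-body libraries and 319 and 303 in the cytoplasm libraries. For liver bud progenitors the values were 334 and 334 against 199 and 188, and for neurons 163 and 185 against 103 and 109. Mouse Pum2 reached 618 and 606 against 302 and 288. The P-body libraries lay above the cytoplasm libraries in every cell type, without overlap. The log2 change was largest in mESC, 1.05 ± 0.042 (edgeR adjusted p = 1.88e-16), followed by liver bud progenitors at 0.79 ± 0.063 (2.27e-17), neurons at 0.72 ± 0.11 (0.000261) and HEK293T at 0.61 ± 0.056 (1.10e-14). Scaling by library size gave 0.65, 0.60, 0.88 and 0.48 in that order, so the ranking depended on the scaling. The human cell types are compared by a test below, and mESC was not tested against them. With the trends in GC content and transcript length removed, the neuronal change was 0.07 and lost its call (adjusted p = 0.574), while those of HEK293T, liver bud progenitors and mESC still passed at 0.21, 0.39 and 0.42.

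CPEB4 encodes a cytoplasmic polyadenylation element-binding protein of the CPEB2 to CPEB4 branch, which binds mRNAs in neurons and dividing cells. Its P-body libraries held 411 and 411 normalised CPM in HEK293T against 158 and 174 in cytoplasm, and 149.7 and 148 in liver bud progenitors against 79.9 and 80.4. Neurons gave 358 and 376 against 103 and 102. Mouse Cpeb4 gave 173 and 174 against 75.8 and 69.6. The lowest P-body library was thus above the highest cytoplasm library in each cell type. On the log2 scale the change was 1.84 ± 0.093 in neurons (edgeR adjusted p = 2.01e-08), or 3.59-fold, then 1.31 ± 0.060 in HEK293T (1.99e-27), 1.26 ± 0.062 in mESC (1.17e-14) and 0.89 ± 0.078 in liver bud progenitors (8.45e-16). CPEB4 stayed called under every alternative tried, at its lowest with the GC and length trends removed, where the changes were 1.18, 0.83, 0.50 and 0.47 in the same order.

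CPEB2, of the same branch of the family as CPEB4, was less abundant and was called higher in P-bodies in the same 4 cell types. HEK293T P-bodies held 53.4 and 61.2 normalised CPM against 28.6 and 30.4 in cytoplasm. Liver bud progenitors held 62.2 and 62.0 against 28.8 and 33.9, and neurons 63.7 and 62.4 against 23.8 and 28.2. The P-body libraries of the 3 human cell types thus lay between 53.4 and 63.7, above all their cytoplasm libraries. Mouse Cpeb2 was lower, at 15.4 and 18.9 against 5.85 and 5.91, from 157 and 179 counts against 55 and 57. The log2 changes were 0.96 ± 0.11, 0.98 ± 0.11, 1.28 ± 0.16 and 1.54 ± 0.19 in HEK293T, liver bud progenitors, neurons and mESC, with edgeR adjusted p-values of 9.84e-12, 9.55e-12, 5.73e-05 and 2.04e-07. All 4 calls held under every alternative tried.

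CPEB3, known as a translational repressor at synapses, was called higher in 3 of the 4 cell types, but only the HEK293T call held under every alternative. HEK293T gave 29.0 and 29.0 normalised CPM in P-bodies against 17.4 and 19.6 in cytoplasm, for which the log2 change was 0.65 ± 0.13 (edgeR adjusted p = 3.42e-05). Neurons gave 38.0 and 51.3 against 30.7 and 28.9, a change of 0.58 ± 0.19 (0.0355). Mouse Cpeb3 gave 13.0 and 11.6 against 8.93 and 7.67, a change of 0.57 ± 0.19 (0.0144). In liver bud progenitors the 6.62 and 9.11 of the P-body libraries overlapped the 5.86 and 6.96 of cytoplasm, and the change of 0.29 ± 0.26 did not pass (0.436). The neuronal call was lost without P-body replicate 2 (0.35, adjusted p = 0.118), cytoplasm replicate 1 (0.61, 0.143) or cytoplasm replicate 2 (0.53, 0.213) and with GC and length trends removed (0.04, 0.881). The mESC call was lost in DESeq2 (0.56, 0.129), with scaling by library size (0.17, 0.457), with GC and length trends removed (0.35, 0.14) and without P-body replicate 1 (0.49, 0.132) or cytoplasm replicate 2 (0.46, 0.0912). Mouse Cpeb3 shares its locus with an antisense gene in the count table, A330032B11Rik, and reads of the pair cannot be told apart since no source used here states strand.

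CPEB1, the founding member of the family, which controls maternal mRNAs in oocytes, had the fewest counts of the set. HEK293T libraries held 47 and 52 counts in P-bodies and 41 and 32 in cytoplasm. Liver bud progenitors held 18 and 11 against 6 and 24, neurons 0 and 4 against 6 and 7, and mESC 27 and 21 against 15 and 21. On the normalised scale the P-body libraries were below the cytoplasm libraries in neurons, above them in mESC, and overlapped them in the other two. A count of 0 in a neuron P-body library of 8638343 counts allows a level of up to 0.347 CPM, counting error only. None of the 4 changes passed, with edgeR adjusted p-values of 0.928, 0.675, 0.501 and 0.463 in the order HEK293T, liver bud progenitors, neurons and mESC. A difference between fractions was not detectable at this depth, and CPEB1 overlaps an antisense gene in the count table, CPEB1-AS1.

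MSI1 encodes Musashi 1, which binds mRNAs of neural progenitors, among them NUMB. It was the only member below its cytoplasm level in P-bodies by the test, and it was so in all 4 cell types. Neurons, where MSI1 was most abundant, held 165 and 133 normalised CPM in P-bodies against 309 and 309.8 in cytoplasm. HEK293T held 14.1 and 13.6 against 32.4 and 28.2, and liver bud progenitors 16.3 and 17.7 against 33.7 and 36.3. Mouse Msi1 gave 18.0 and 23.1 against 30.3 and 37.3. Every P-body library was below both cytoplasm libraries of its cell type. The log2 changes were −1.13 ± 0.14 in HEK293T (edgeR adjusted p = 3.29e-10), −1.05 ± 0.11 in neurons (8.90e-06), −1.04 ± 0.15 in liver bud progenitors (6.43e-09) and −0.72 ± 0.14 in mESC (0.000108), so that P-bodies held between 0.458 and 0.607 times the cytoplasm level. GC-rich mRNAs as a whole were low in P-bodies. The quintile of genes with the highest GC content had median log2 changes of −0.97 in HEK293T, −0.81 in neurons, −0.60 in liver bud progenitors and −0.38 in mESC. With the GC and length trends removed, MSI1 still passed in every cell type, at −0.40 (edgeR adjusted p = 0.022), −0.45 (0.00402), −0.42 (0.0164) and −0.41 (0.0183) in that order.

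MSI2, the second Musashi protein, is expressed more widely than MSI1 and is known in blood stem cells. Liver bud progenitors held 122 and 128 normalised CPM in P-bodies against 83.2 and 79.7 in cytoplasm, which gave a log2 change of 0.62 ± 0.080 (edgeR adjusted p = 8.37e-10). Mouse Msi2 gave 327 and 331 against 231 and 231, a change of 0.51 ± 0.045 (6.92e-10). HEK293T gave 66.3 and 70.4 against 54.6 and 58.1, a change of 0.28 ± 0.089 (0.00755). In these 3 cell types the P-body libraries were above the cytoplasm libraries. Neuron P-bodies gave 56.9 and 75.0 and enclosed the cytoplasm values of 61.5 and 66.8, and the change of 0.04 ± 0.16 did not pass (0.864). The liver bud progenitor call held under every alternative. The HEK293T call was lost without P-body replicate 2 (0.23, adjusted p = 0.118) and with scaling by library size (0.15, 0.194). Removing GC and length trends turned MSI2 to −0.09 in HEK293T (0.428), to −0.12 in mESC (0.0325) and to −0.56 in neurons (0.0145), so that the direction of MSI2 outside liver bud progenitors rested on leaving those trends in.

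**Figure D2:**
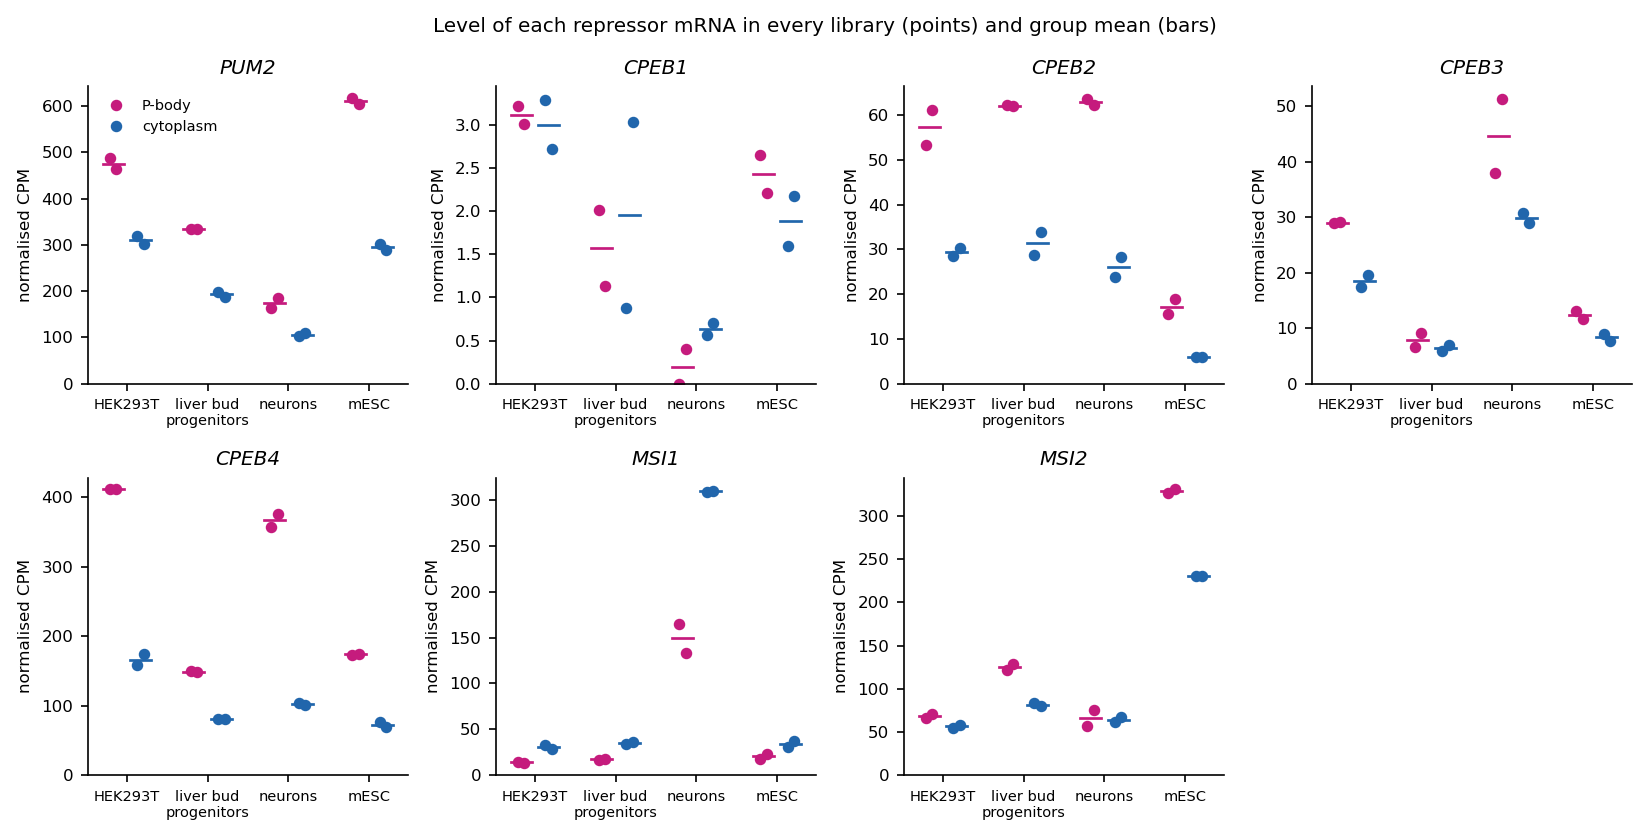
Normalised CPM (y axis, linear from 0, a separate scale for each gene) of the 7 members in every library, with P-body libraries in pink and cytoplasm libraries in blue for each cell type (x axis) and short bars at the mean of the 2 libraries. The P-body points are above the cytoplasm points for PUM2, CPEB2 and CPEB4 in each cell type and below them for MSI1.

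The ratio of MSI2 to MSI1 counts within a library needs no scaling between libraries, and was looked at after the values were seen. It is not corrected for GC content or transcript length, in which MSI1 and MSI2 differ. It was 4.69 and 5.16 in HEK293T P-bodies against 1.69 and 2.06 in cytoplasm, and 7.49 and 7.25 in liver bud progenitor P-bodies against 2.47 and 2.195. Neurons had 0.345 and 0.562 against 0.199 and 0.216, and mESC 18.2 and 14.3 against 7.61 and 6.19. Each P-body library was above both cytoplasm libraries of its cell type. MSI2 counts exceeded MSI1 counts in every library except those of the neurons. With the GC and length trends removed, the neuronal log2 changes were −0.56 for MSI2 and −0.45 for MSI1, so MSI2 no longer stood above MSI1 there. The values for MSI2 and MSI1 were then −0.09 and −0.40 in HEK293T and −0.12 and −0.41 in mESC. In liver bud progenitors they were 0.30 and −0.42.

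**Figure D3:**
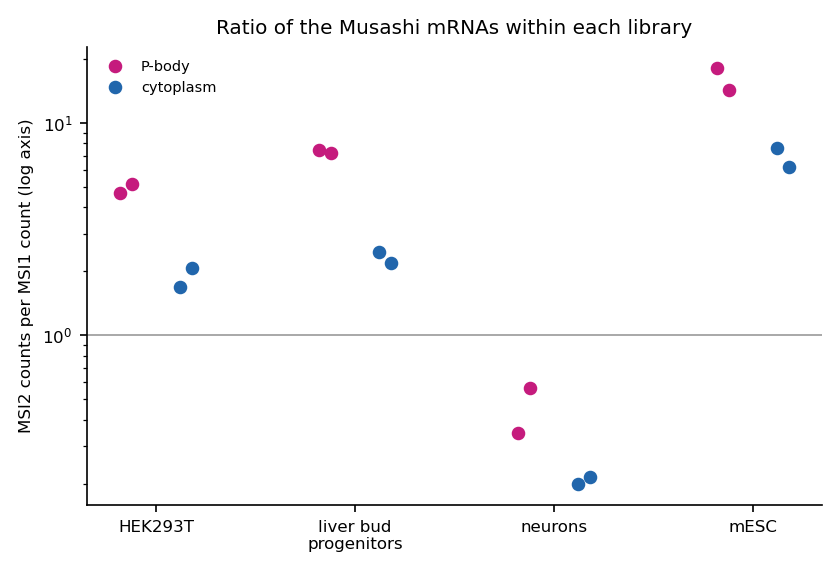
Counts of MSI2 per count of MSI1 (y axis, log scale) in each of the 16 libraries, by cell type (x axis) and fraction (colour), with a line at equal counts. The ratio is higher in both P-body libraries than in both cytoplasm libraries of each cell type, and the neuron libraries lie between 0.199 and 0.562.

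On a scale that allows genes to be compared, normalised CPM per kilobase of the longest protein-coding transcript, PUM2 was the highest member in cytoplasm of HEK293T (49.2), liver bud progenitors (30.7) and mESC (46.8). Neuron cytoplasm was led by MSI1 at 104.6, with PUM2 at 16.8 and CPEB4 at 10.9. The order below PUM2 differed between fractions. In HEK293T cytoplasm it ran CPEB4 (17.6), MSI1 (10.2), MSI2 (8.84), CPEB2 (4.17), CPEB3 (2.37) and CPEB1 (0.616), and in HEK293T P-bodies MSI1 (4.69) stood below MSI2 (10.7) and CPEB2 (8.10). Neighbours in the order did not overlap between libraries except MSI2 and CPEB2 in neuron P-bodies, CPEB3 and CPEB2 in neuron cytoplasm, Cpeb2 and Cpeb3 in mESC P-bodies and Cpeb4 and Msi1 in mESC cytoplasm. These ranges rest on 2 libraries each and on the transcript length chosen.

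Neurons and liver bud progenitors came from the same line and carried the same RNA label, so their cytoplasm libraries were compared directly for the level of each member. In this fit of 4 cytoplasm libraries, 26% of 21900 genes were called higher in neurons and 25.8% lower, or 36.9% and 34.5% of those averaging at least 1 normalised CPM. Among the members, 3 were higher in neurons, 1 was lower and 3 did not pass. Over all genes, both neuron libraries lay above both liver bud progenitor libraries for 34.3% and below them for 38.3%. MSI1 rose from 31.4 and 33.9 normalised CPM in liver bud progenitors to 334 and 334 in neurons, a log2 difference of 3.35 ± 0.097 (edgeR adjusted p = 3.21e-44). CPEB3 rose from 5.46 and 6.51 to 33.1 and 31.2 (2.42 ± 0.20, 2.89e-18) and CPEB4 from 74.5 and 75.2 to 111 and 109.5 (0.56 ± 0.099, 1.05e-06). PUM2 fell from 185 and 176 to 112 and 117 (−0.66 ± 0.088, 7.79e-10). The differences of CPEB2 (−0.07 ± 0.15) and MSI2 (−0.13 ± 0.11) did not pass, nor did that of CPEB1 (−1.42 ± 0.70, 0.0839). The 7 neural progenitor markers, which do not include MSI1, summed to 1734 to 1837 CPM in neuron cytoplasm. In liver bud progenitor cytoplasm they summed to 2924 to 2940 CPM. All 7 reached 1 CPM in neuron cytoplasm, whereas HES5 stayed under 1 CPM in liver bud progenitor cytoplasm. HEK293T cytoplasm held 2339 to 2419 CPM of them, so the sum is not particular to neural cells. The part of these markers in the member levels was not tested. Scaling by library size in place of TMM moved all differences here by a median of −0.37, with which CPEB4 lost its call (0.18, 0.181) and CPEB1, CPEB2 and MSI2 were called lower in neurons. CPEB1 was also called lower without liver bud progenitor cytoplasm replicate 1 (−2.04, 0.0442).

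Levels in HEK293T stand beside these as CPM of the library total, with no test because the RNA label differs. PUM2 was highest in HEK293T cytoplasm (325 ± 10.1, SD, n = 2), then liver bud progenitors (207 ± 9.67) and neurons (100.2 ± 6.88), without overlap. CPEB4 followed the order HEK293T (174 ± 13.2), neurons (96.6 ± 2.14) and liver bud progenitors (85.5 ± 0.264). For MSI1 the order was neurons (292.3 ± 10.04), liver bud progenitors (37.3 ± 1.70) and HEK293T (31.7 ± 2.95). MSI2 was highest in liver bud progenitors (86.9 ± 3.28), and its libraries overlapped between neurons (60.7 ± 5.54) and HEK293T (59.0 ± 2.90). CPEB2 overlapped between liver bud progenitors (33.5 ± 3.56) and HEK293T (30.9 ± 1.48) and was lowest in neurons (24.6 ± 3.74). With TMM, CPEB2 averaged 28.1 in neurons and 29.3 in liver bud progenitors. Neither its difference nor that of MSI2 passed there, so the places of neurons and liver bud progenitors depended on the scale. CPEB3 stood at 28.1 ± 0.276 in neurons, 19.3 ± 1.74 in HEK293T and 6.83 ± 0.778 in liver bud progenitors.

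Whether P-body enrichment itself differed between cell types was tested with the interaction of cell type and fraction in the 8 libraries of each pair of human cell types. Between neurons and liver bud progenitors, 9.21% of 22268 genes were called more enriched in neurons and 8.5% less, and 12.3% and 12.5% of those averaging at least 1 normalised CPM. CPEB4 was more enriched in neurons by 0.94 ± 0.11 on the log2 scale (edgeR adjusted p = 3.13e-05), and this held under every alternative. MSI2 was less enriched in neurons by −0.59 ± 0.17 (0.0289), which failed in 8 alternatives. They were DESeq2 (−0.55, 0.06), scaling by library size (−0.23, 0.438), filterByExpr (−0.44, 0.0892), and the removal of any 1 liver bud progenitor library (−0.64 to −0.54, 0.0725 to 0.129) or of neuron cytoplasm replicate 2 (−0.62, 0.0715). The other 5 members did not pass, and the 95% interval of the difference was −0.33 to 0.17 for PUM2, −0.39 to 0.36 for MSI1 and −0.13 to 0.71 for CPEB2.

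For neurons against HEK293T, 6.35% of 22262 genes were called more enriched in neurons and 6.19% less (9.34% and 9.47% at 1 normalised CPM or more), and CPEB4 was the only member called, at 0.39 ± 0.11 (edgeR adjusted p = 0.026). This call was lost in 8 alternatives. They were RLE factors (0.32, 0.069), the fit without ribosomal RNA genes (0.25, 0.16), removed GC and length trends (0.33, 0.0507) and the removal of HEK293T P-body replicate 1 (0.32, 0.195) or 2 (0.40, 0.103), HEK293T cytoplasm replicate 2 (0.33, 0.133), or neuron cytoplasm replicate 1 (0.41, 0.0656) or 2 (0.38, 0.0823). For liver bud progenitors against HEK293T, 12.5% of 22242 genes were called more enriched in liver bud progenitors and 15% less (19.4% and 22.2% at 1 normalised CPM or more). CPEB4 was less enriched in liver bud progenitors, by −0.65 ± 0.099 (6.05e-07), under every alternative. CPEB4 enrichment was thus lower in liver bud progenitors than in either other human cell type under every alternative, while its difference between neurons and HEK293T depended on the processing. Both comparisons with HEK293T cross the RNA label. Each pair was scaled over its 8 libraries, so these differences need not equal those between the separate changes. For CPEB4, −0.65 stands beside separate changes of 0.89 in liver bud progenitors and 1.31 in HEK293T. For PUM2, −0.05 stands beside 0.79 and 0.61. No difference in MSI1 depletion passed in any pair, and against HEK293T its 95% interval was −0.42 to 0.29 for neurons and −0.54 to 0.26 for liver bud progenitors. For PUM2 these intervals were −0.29 to 0.21 and −0.23 to 0.12. Scaling by library size moved all differences by a median of 0.35 for neurons against liver bud progenitors, 0.43 for neurons against HEK293T and 0.16 for liver bud progenitors against HEK293T.

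**Figure D4:**
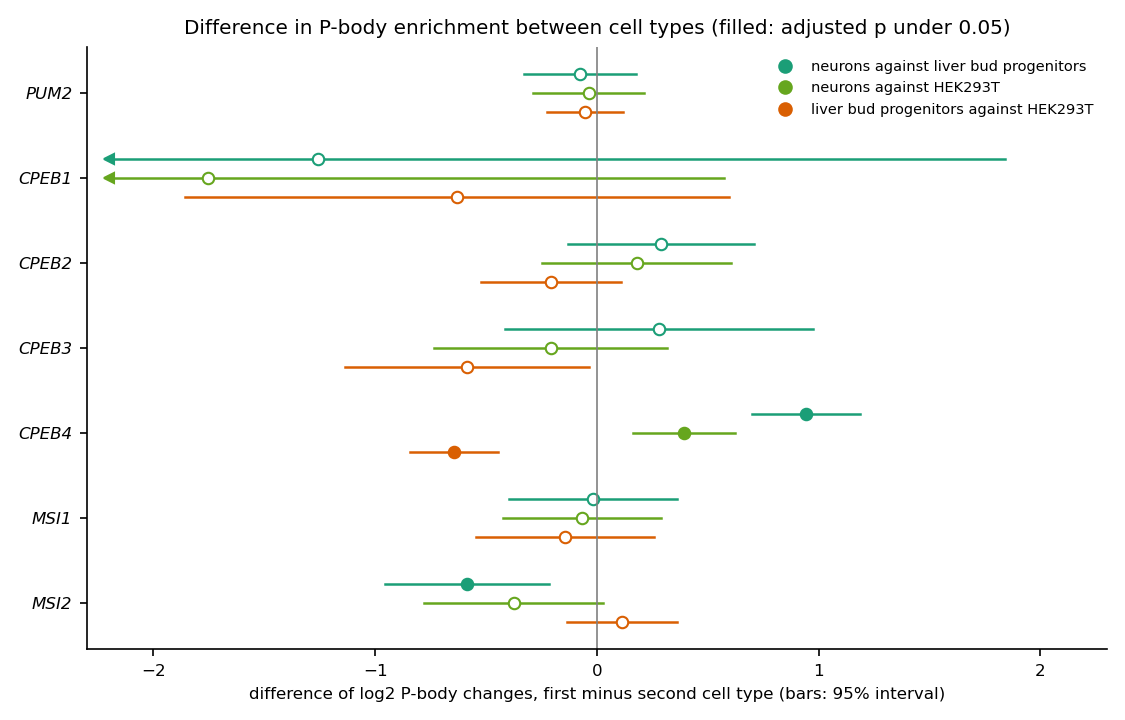
The difference between log2 P-body changes of 2 cell types (x axis) for each member (rows), as the first minus the second named in the key. It comes from the joint fit of both cell types, scaled together, and need not equal the difference of their separate changes. Bars are 95% intervals, with arrows where an interval runs off the axis. Filled points, which passed at adjusted p under 0.05, are the 3 for CPEB4 at 0.94, 0.39 and −0.65 and 1 for MSI2 at −0.59.

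The genes that work with these repressors were counted from lists chosen for their known roles, with earlier results of these data known. Values of the listed genes were not recomputed under the alternatives. Of 12 Pumilio partners and targets, 7 were higher and 1 lower in HEK293T P-bodies, 6 and 1 in liver bud progenitors, and 6 and 1 in neurons, and in mESC 7 of the 10 measured were higher and 1 lower. The list medians were 0.77, 0.25, 0.44 and 0.62. E2F3, a cell cycle transcription factor and Pumilio target, was called higher in all 4, from 0.60 ± 0.075 in liver bud progenitors to 1.68 ± 0.13 in neurons. NORAD, a long noncoding RNA that binds many Pumilio molecules, was lower in P-bodies of HEK293T (−0.56 ± 0.095) and neurons (−1.36 ± 0.14) and higher in those of liver bud progenitors (0.46 ± 0.075).

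Of 15 CPEB polyadenylation factors and partners in the human table, 8 were higher and 4 lower in HEK293T P-bodies, 8 and 2 in those of neurons and 8 and 3 in those of liver bud progenitors, and of 14 in mESC 8 were higher and 2 lower, with medians of 0.31, 0.90, 0.21 and 0.48. TOB1, which links CPEB3 to deadenylase, was called higher in every cell type, from 1.095 ± 0.064 in liver bud progenitors to 2.12 ± 0.11 in neurons. TENT2, a cytoplasmic poly(A) polymerase, rose by 1.08 ± 0.061, 0.43 ± 0.084, 0.94 ± 0.14 and 0.73 ± 0.062 in the order HEK293T, liver bud progenitors, neurons and mESC. Of the cleavage and polyadenylation subunits, CPSF2 and FIP1L1 were higher in all 4 cell types and CPSF1 and SYMPK lower in all 4. The other listed subunits were not called in the same direction in all 4. EIF4ENIF1, the eIF4E-binding P-body protein 4E-T, was higher in HEK293T (1.25 ± 0.069), neurons (1.51 ± 0.11) and mESC (0.83 ± 0.056) and did not pass in liver bud progenitors (0.10 ± 0.11).

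CPEB targets were mixed, with 4 higher and 1 lower of 9 in HEK293T, 2 and 3 of 9 in both liver bud progenitors and neurons, and 3 and 1 of 7 in mESC. CCNB1, the mitotic cyclin, was called higher in liver bud progenitors (0.72 ± 0.096), neurons (1.31 ± 0.23) and mESC (1.11 ± 0.045) and gave 0.14 ± 0.075 in HEK293T. Of 5 Musashi partners and targets, 2 were higher and 2 lower in HEK293T, and 1 and 4 in neurons. Liver bud progenitors had 2 higher and 1 lower, and mESC 3 and 0. NUMB, the Notch inhibitor whose mRNA Musashi 1 binds, was called higher in P-bodies of all 4 cell types, at 1.26 ± 0.064 in HEK293T, 1.80 ± 0.13 in neurons, 0.35 ± 0.072 in liver bud progenitors and 1.01 ± 0.083 in mESC, where MSI1 itself was lower. DAZAP1, an RNA-binding protein with domains like those of Musashi, was lower in HEK293T (−0.94 ± 0.11), liver bud progenitors (−0.41 ± 0.12) and neurons (−1.17 ± 0.26). The medians of CPEB targets were 0.24 in HEK293T, −0.58 in neurons, −0.26 in liver bud progenitors and 0.72 in mESC, and those of the Musashi list 0.24, −0.82, 0.00 and 0.19. Each of these counts stands beside the percentages of all genes called, given at the outset. The lists also hold genes under the detection floor, which were counted as not called. In HEK293T these included NANOS2 (0.09 normalised CPM), EIF4E1B (0.01), MOS (0.07) and TTYH1 (0.03). The HEK293T median of the CPEB targets was the value of a gene averaging 0.31 normalised CPM.

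Over the 12 human libraries, the genes whose log2(CPM + 1) most resembled each member were, by Pearson r, ZNF271P (0.998) and NPM1 (0.997) for PUM2, RNMT (0.985) and RNF20 (0.976) for CPEB2, and ST7 (0.987) and ZNF704 (0.982) for CPEB3. For CPEB4 they were LRCH1 (0.994) and ZNF594 (0.994), for MSI1 GPR153 (0.996) and KIAA0895L (0.996), and for MSI2 ANKIB1 (0.9754) and FBXW7 (0.969). These were the highest of 6921 genes that averaged at least 20 CPM, over libraries that share cell type and fraction in pairs, and are a description of 12 points in 6 groups.

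**Figure D5:**
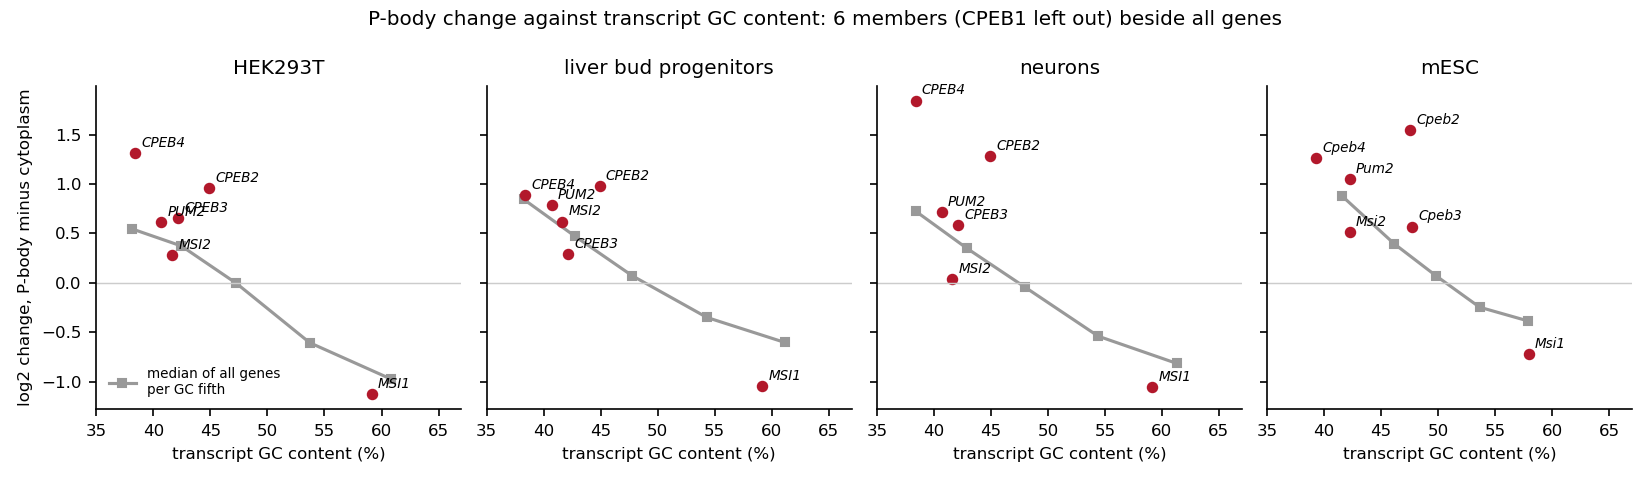
The log2 change from cytoplasm to P-body (y axis) of 6 members against the GC content of their longest protein-coding transcript in percent (x axis), in the 4 cell types, with grey squares for the median of all genes in each quintile of GC content. MSI1, at 59.1% GC in human, lies with the GC-rich genes below zero, CPEB2 lies above the grey line in each panel, and CPEB1 is left out for its low counts.

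Transcript GC content moved with P-body enrichment across all genes, and the members are given beside that trend. Over genes averaging at least 1 normalised CPM, the median log2 change in HEK293T was 0.55 in the quintile of lowest GC content and −0.97 in the highest. Neurons had 0.73 and −0.81, liver bud progenitors 0.84 and −0.60, and mESC 0.88 and −0.38. The GC-poorest member, CPEB4 at 38.4%, had changes of 1.31, 1.84 and 0.89 in HEK293T, neurons and liver bud progenitors, all above the medians of that lowest quintile, though in liver bud progenitors by less than its SE. CPEB2, at 44.9%, had changes of 0.96, 1.28 and 0.98, against medians of 0.35 and 0.47 in its quintile, the second, in neurons and liver bud progenitors. In HEK293T it lay just past the edge between the second and the middle quintile (44.68%), whose medians were 0.37 and −0.00. PUM2, at 40.7%, sat at the GC-poor end of the second quintile, and its changes of 0.72 in neurons and 0.79 in liver bud progenitors lay between the medians of that quintile and the lowest, while its 0.61 in HEK293T was above both. CPEB3, at 42.1%, was above the median of the second quintile by 0.28 in HEK293T and 0.24 in neurons and differed from it by −0.18 in liver bud progenitors, the last by less than its SE of 0.26. MSI2, at 41.6% and in the same quintile, differed from those medians by −0.10 in HEK293T, −0.31 in neurons and 0.15 in liver bud progenitors. MSI1, at 59.1% in the highest quintile, lay below its medians by a difference of −0.16, −0.24 and −0.44 in the order HEK293T, neurons and liver bud progenitors. In mESC, Cpeb2, Cpeb4, Cpeb3 and Pum2 were above the medians of their quintiles, by 1.15, 0.38, 0.17 and 0.17, while Msi2 and Msi1 differed by −0.37 and −0.34. These distances are descriptions, with no test. The share of ribosomal RNA in the human libraries was also lower in P-bodies, 4.32% to 13.4% of counts, than in cytoplasm, 15.9% to 24.9%, and its part in the values was not tested beyond the fit without those genes. Scaling by library size in place of TMM shifted all P-body changes alike, by a median of −0.13 in HEK293T, 0.17 in neurons, −0.18 in liver bud progenitors and −0.40 in mESC.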

How the data were processed

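Gene counts were analysed for 16 libraries in 8 groups of 2, grouped by their titles. The authors deposited whole-number counts per gene symbol, a table on hg38 and a table on mm10. Per the study's methods, snapTotal-seq libraries (here the total RNA ones, per the labels) were quantified with salmon in the nf-core RNA-seq pipeline, and SMART-Seq data in general with hisat2 and featureCounts. Which of these made the polyA columns of the shared human table is not given in the sources used here, nor is strand. Genes with fewer than 10 reads in total had been removed. The authors' own DESeq2 comparisons (means, log2 fold changes and p-values) were deposited too and were not used.

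Counts were fitted with edgeR 4.0.16 (R 4.3.3) by quasi-likelihood after TMM scaling, dropping genes with 0 counts in all libraries compared, within each cell type for P-body against cytoplasm, on the cell type by fraction interaction in pairs of human cell types, and between neuron and liver bud progenitor cytoplasm. P-values were adjusted by Benjamini-Hochberg over all genes and called under 0.05. Depth was 6368953 to 17972284 counts a library. Intervals and floors cover the model's spread or counting error only, and no source used here names molecular identifiers. 3′UTRs and GC content came from GENCODE v44 (hg38) and M21 (mm10), matched by symbol for 92.48% of human and 97.64% of mouse genes. The fits were also run on simulated counts with a small set of changed genes and a fixed spread, which do not show their error rate at the spread of these libraries. Alternatives were DESeq2 1.42.0, RLE factors, library size only, filterByExpr, no ribosomal RNA genes, a replicate block, leaving out each library, removed GC and length trends, and a single fit of the 12 human libraries.

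Named genes were the 7 members, the lists of partners and targets, and for each human member with a mean of at least 5 CPM the 2 genes most correlated with it. The members and lists were chosen with earlier results of these data known. Same-numbered replicates were not treated as pairs in the fits: their deviations from group means correlated at −0.09 in HEK293T, 0.13 in neurons, 0.06 in liver bud progenitors and −0.04 in mESC. A motif site and a gene are not reported here, although counts and medians over lists include every listed gene.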

Additional observations from a re-analysis of the deposited data

Results flagged for a closer look

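Between cell types, 2 members differed in P-body enrichment by edgeR's interaction term, in 4 results. CPEB4 was more enriched in neurons than in liver bud progenitors by 0.94 on the log2 scale (adjusted p = 3.13e-05, 95% interval 0.70 to 1.19). It was also less enriched in liver bud progenitors than in HEK293T, by −0.65 (6.05e-07), and both of these calls held under every alternative. Its higher enrichment in neurons than in HEK293T, by 0.39 (0.026), lost its call in 8 alternatives, with adjusted p-values up to 0.195. The pairs share groups, and both comparisons with HEK293T also differ in RNA label, which cannot be told apart from the cell type. MSI2 was less enriched in neurons than in liver bud progenitors, by −0.59 (0.0289). The neuron P-body pair, which enters 3 of these 4 results, was the least alike pair of libraries, and its part in them was measured by leaving each of the 2 out. Against liver bud progenitors CPEB4 then gave 0.88 without replicate 1 and 0.79 without replicate 2, and MSI2 −0.50 and −0.92, all called. The MSI2 call was lost with DESeq2, library size or filterByExpr (adjusted p = 0.06, 0.438 and 0.0892) and without neuron cytoplasm replicate 2 or any 1 liver bud progenitor library (0.0715 to 0.129). Groups of 2 libraries are too small for a test of single outlying samples.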

How the results depend on the processing

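Of 719 recomputed values of members, 631 kept their direction and their side of the threshold, 48 changed sign (44 of them called neither before nor after), 29 lost a call and 11 gained one. In each cell type MSI1 stayed called lower and CPEB2 and CPEB4 higher in P-bodies under all alternatives run for that cell type, and so did PUM2 except for neurons with GC and length trends removed. The causes of the changes below were not tested. The counts of calls rest on 2 libraries a group, and CPEB1, with 0 to 52 counts a library, was too shallow for a call to be read either way.

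With scaling by library size only, CPEB1 gave −0.080 in HEK293T and Cpeb1 −0.032 in mESC. The differences in enrichment became 0.28 for PUM2 and 0.34 for MSI1 in neurons against liver bud progenitors, 0.40 for PUM2 (called), 0.23 for CPEB3, 0.37 for MSI1 and 0.058 for MSI2 in neurons against HEK293T, and 0.12 for PUM2 and 0.027 for MSI1 in liver bud progenitors against HEK293T. Members called became 2 higher and 0 lower in neurons against liver bud progenitors, 2 higher in neurons against HEK293T, and 4 lower in cytoplasm. Over all genes, 2591 were then higher and 6609 lower in mESC (4104 and 3271 with TMM), 3520 and 940 in neurons against liver bud progenitors (2050 and 1892), and 3328 and 446 in neurons against HEK293T (1414 and 1379). The split also moved to 3684 and 5635 in HEK293T (4221 and 4986), 3822 and 4850 in liver bud progenitors (4708 and 3747), 3839 and 2356 in neurons (3220 and 3123), 3665 and 2510 in liver bud progenitors against HEK293T (2788 and 3339), and 4173 and 7270 in cytoplasm (5696 and 5648).

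With GC and length trends removed, CPEB1 gave −0.18 and MSI2 −0.090 in HEK293T, MSI2 −0.56 in neurons and Msi2 −0.12 in mESC. Differences became −0.074 for CPEB2 and −0.025 for CPEB3 in neurons against liver bud progenitors, 0.12 for MSI1 in neurons against HEK293T, and 0.17 for PUM2, 0.23 for CPEB2 and 0.068 for MSI1 in liver bud progenitors against HEK293T, and MSI2 gave 0.19 in cytoplasm. Members called became 2 higher and 2 lower in neurons, 3 and 2 in mESC, 2 lower in neurons against liver bud progenitors, 0 higher in neurons against HEK293T and 1 higher in liver bud progenitors against HEK293T. All genes called lower became 2383 in liver bud progenitors (3747) and genes called higher 2023 in neurons (3220).

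With filterByExpr, PUM2 gave 0.067 and MSI1 0.13 in neurons against liver bud progenitors, 0.10 and 0.072 in neurons against HEK293T, and 0.13 and 0.041 in liver bud progenitors against HEK293T, 0 members were lower in the first and 1 higher in the last, and the split of all genes moved to 2601 and 1536, 1958 and 1023, and 3739 and 2410. In neurons against liver bud progenitors MSI1 gave 0.018 with DESeq2 and 0.017 with RLE factors, and DESeq2 called 0 members lower. In neurons against HEK293T, RLE factors and the fit without ribosomal RNA genes each called 0 members higher, and without those genes PUM2 gave 0.023 in liver bud progenitors against HEK293T. The single fit of 12 libraries gave MSI2 −0.068 and 4943 genes lower in neurons (3123), and DESeq2 1784 genes lower in mESC (3271). Where a setting called 0 members in one direction that the chosen fit had called, 1 member had an unadjusted p under 0.05 in that direction, except with library size in neurons against liver bud progenitors, where it was 0.

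Leaving out each library in turn moved CPEB1 from −0.071 to 0.23 in HEK293T and from −0.95 to 0.79 in liver bud progenitors, and MSI2 from −0.17 to 0.23 in neurons. Differences ranged from −0.074 to 0.54 for CPEB3 and −0.28 to 0.060 for MSI1 in neurons against liver bud progenitors, −0.14 to 0.058 for PUM2 and −0.22 to 0.075 for MSI1 in neurons against HEK293T, and −1.22 to 0.49 for CPEB1 and −0.017 to 0.15 for MSI2 in liver bud progenitors against HEK293T, and CPEB2 in cytoplasm from −0.20 to 0.061. Members called lower ranged from 0 to 1 in neurons against liver bud progenitors, from 0 to 2 in neurons against HEK293T (with 0 to 1 higher), from 1 to 2 in liver bud progenitors against HEK293T and from 1 to 2 in cytoplasm. The 2 lower in neurons against HEK293T were CPEB1 and MSI2 (−0.60), without neuron P-body replicate 2, and in liver bud progenitors against HEK293T CPEB3 joined CPEB4 without liver bud progenitor P-body replicate 2 (−0.84). All genes called ranged from 2109 to 4394 higher and 1892 to 4433 lower in neurons, 1193 to 2772 and 1160 to 3628 in neurons against liver bud progenitors, and 672 to 2499 and 781 to 2372 in neurons against HEK293T.

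A replicate block on the shared numbers left all 56 values of members on the same side of the threshold, for instance CPEB4 at 0.94 in neurons against liver bud progenitors, and called 3353 genes higher and 3601 lower in neurons. Per the study's methods, aliquots of the matching cytoplasmic fraction were kept with the sorted P-bodies, so a P-body and a cytoplasm library can share a lysate. The labels do not say whether the replicate numbers follow that match. Correlations of same-numbered libraries were too low to treat the numbers as pairs, which does not show that the fractions were independent. DESeq2 gave no adjusted p for CPEB1 in neurons.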

Other observations

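CPEB4 supplied most of the counts of the 4 CPEB genes in every library. Its share was 82.8% and 81.5% in HEK293T P-bodies against 76.2% and 76.8% in cytoplasm, and 77.9% and 76.7% in neuron P-bodies against 65.2% and 63.7%. In liver bud progenitors the shares overlapped between fractions, at 67.9% and 67.2% against 69.2% and 64.7%, and in mESC they were 84.8% and 84.2% against 82.2% and 81.6%. These shares are within a library and were looked at after the values were seen, with no test.

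Across genes with a mean of at least 1 normalised CPM and a 3′UTR, those with a Pumilio motif had higher median log2 changes than those without, at 0.35 against −0.43 in HEK293T, 0.22 against −0.29 in neurons, 0.30 against −0.02 in liver bud progenitors and 0.38 against −0.07 in mESC. The same held for the Musashi motif, at 0.12 against −0.79 in HEK293T and 0.06 against −0.57 in neurons. Genes with a match also had longer 3′UTRs and lower GC content, for instance a median of 2948 bases and 42.9% GC against 1227 bases and 50.3% for the Pumilio motif in HEK293T, and the part of these in the medians was not tested.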
